A study of Arabidopsis thaliana with 6 samples.

Results

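The genes described here carry out glucosinolate synthesis and leucine synthesis in Arabidopsis thaliana. They are the loci whose Gene Ontology annotation in the deposited tables holds the process term for glucosinolate synthesis or that for leucine synthesis, which gave 42 of 33602 loci. Of these, 33 carry the glucosinolate term, 15 the leucine term and 6 both. Members were chosen by annotation, and the pair of pathways was selected on the difference in RPKM between the genotypes in these same libraries. Calls and fold changes of these members are therefore a description, and nothing is read from how many of them were called. Whole seedlings of the Col-0 accession (wild type) and of the homozygous toc1-21 prr5-1 double mutant were compared by RNA sequencing, with 3 libraries per genotype that the submitters call biological replicates. Both genotypes were raised for 10 days on MS medium (3% sucrose) at 22 °C under long days, and harvest was at ZT15, 15 h after lights on. The sources used here do not give the accession in which each mutant allele arose. TOC1 and PRR5 are pseudo-response regulators of the circadian clock, and the series' title places them in the photoperiodic control of hypocotyl growth.

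Glucosinolates are sulfur-rich defence compounds of the cabbage order. Aliphatic glucosinolates start from methionine, whose side chain is first lengthened in the plastid by a cycle of condensation, isomerisation and oxidative decarboxylation. This cycle is related to the last steps of leucine synthesis and shares some enzymes with it. Indolic glucosinolates start from tryptophan and need no chain elongation. In both branches a CYP79 enzyme makes an aldoxime, a CYP83 enzyme oxidises it, and glutathione conjugation, C-S cleavage, glucosylation and sulfation complete the core. The side chain is modified afterwards. R2R3-MYB factors activate the branches, with MYB28, MYB29 and MYB76 acting on aliphatic genes and MYB34, MYB51 and MYB122 on indolic genes, in complexes with MYC2, MYC3 and MYC4.

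Some promoters of aliphatic chain elongation and core enzymes held a short sequence of the kind that R2R3-MYB factors bind. The AC element, searched as ACCTACC or ACCAACC on both strands in the 250 bases before the annotated gene start, was present in 7 of 14 promoters of aliphatic chain elongation and core members (50%) and in 0 of 6 promoters of aliphatic side chain members. It was present in 1039 of 27443 promoters of protein-coding genes (3.79%). The 60 bases around it are shown for these 7 genes, read 5′ to 3′ on the gene's own strand from TAIR10.1, with the element in capitals; GGTTGGT and GGTAGGT are the element on the other strand.
BAT5, chr4:7210747-7210806, plus strand: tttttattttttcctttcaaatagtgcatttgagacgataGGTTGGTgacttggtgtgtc
IIL1, chr4:7807985-7808044, minus strand: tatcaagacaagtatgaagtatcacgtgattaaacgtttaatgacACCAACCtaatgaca
IPMI1, chr3:21798404-21798463, minus strand: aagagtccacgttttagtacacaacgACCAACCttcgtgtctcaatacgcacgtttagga
IPMI2, chr2:17920525-17920584, plus strand: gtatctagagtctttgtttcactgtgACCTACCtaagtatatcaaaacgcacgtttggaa
CYP79F2, chr1:5604914-5604973, plus strand: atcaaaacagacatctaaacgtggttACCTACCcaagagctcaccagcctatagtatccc
CYP83A1, chr4:7992467-7992526, minus strand: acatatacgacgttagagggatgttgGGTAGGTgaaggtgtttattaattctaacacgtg
SOT17, chr1:6398471-6398530, plus strand: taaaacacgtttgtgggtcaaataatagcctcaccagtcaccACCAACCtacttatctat
The element lay 15 to 134 bases before the gene start, on the gene's own strand in 5 genes and on the other strand in 2. It was also present for SOT16 of the indolic core, UGT74B1 and IPMS2, which made 10 of the 40 members with a protein-coding promoter (25%). MAM1, MAM3, BCAT4, IMD1 and CYP79F1, which were higher in the mutant as described next, had no such letters in this window. A match is a description of the letters and not a binding site.

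The G-box, CACGTG, which bHLH factors such as MYC2 and the PIFs bind, was found in 3 of 40 member promoters (7.5%) against 6.49% of all promoters. The 3 genes were IIL1, CYP83A1 and SUR1. The CCA1-binding site, AAAAATCT, was found in 2 of 40 (5%) against 6.69%, and the evening element, AAATATCT, in 0 of 40 against 4.79%. The core of the sulfur-response element, GAGAC, was found in 13 of 40 (32.5%) against 25.8%. It was in 3 of 5 promoters of leucine enzymes and 2 of 14 promoters of aliphatic chain elongation and core members. No overlap between motifs was removed.

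As a check of the labels, the mutated genes were read first, and each was lower in the mutant. TOC1 stood at 34.0, 31.99 and 34.9 RPKM in Col-0 replicates 1 to 3 and 18.6, 14.8 and 17.2 RPKM in mutant replicates 1 to 3 (limma adjusted p = 0.000187). PRR5 stood at 2.88, 3.01 and 2.92 RPKM and 1.09, 0.926 and 1.35 RPKM (limma adjusted p = 0.00371). RPKM, the deposited unit, is the number of reads per kilobase of a gene, scaled to the depth of its library. The libraries rest on 14617043 to 26792712 reads, a depth worked out from the steps between low values. Differences are log2 fold changes, mutant over Col-0, on log2(RPKM + 1), from a limma fit across the 19710 genes that reached 1 RPKM in 3 or more libraries, and a gene is called at an adjusted p under 0.05. Over all tested genes 10.6% were called, 3.9% higher and 6.65% lower, and the median log2 fold change was -0.01. The labels do not say how replicates were grown apart, so the spread behind a p-value is that between these samples and may be technical. In whole seedlings, fewer cells that express a gene and less RNA per cell cannot be told apart. Every library was harvested at ZT15, and higher and lower refer to that hour. A shift in the timing of a daily rhythm and a change in level over the whole day therefore cannot be told apart.

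Of the 42 members, 36 passed the filter on low values and 6 did not. Among the 36 tested, 14 were higher in the mutant, 2 were lower and 20 did not pass, beside the 10.6% called over all tested genes. Their median log2 fold change was 0.22, beside -0.01 for all tested genes. The 6 below the filter were BZO1, the benzoyl-CoA ligase of seed glucosinolates, at no more than 0.192 RPKM in any library, AT2G30830 at no more than 0.254 RPKM, and CYP79C1, CYP79C2, AT2G22335 and AT3G32445, which are listed at 0 in every library.

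Genes of methionine chain elongation rose together in the mutant. Of the 9 members of this step, 8 were called higher and 1 did not pass, beside 3.9% called higher over all tested genes. Their median log2 fold change was 0.66. The Col-0 and mutant values of the 8 called genes did not overlap, as was the case in that direction for 11.6% of all tested genes. The plot of levels in each library shows them on the left.

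**Figure D1:**
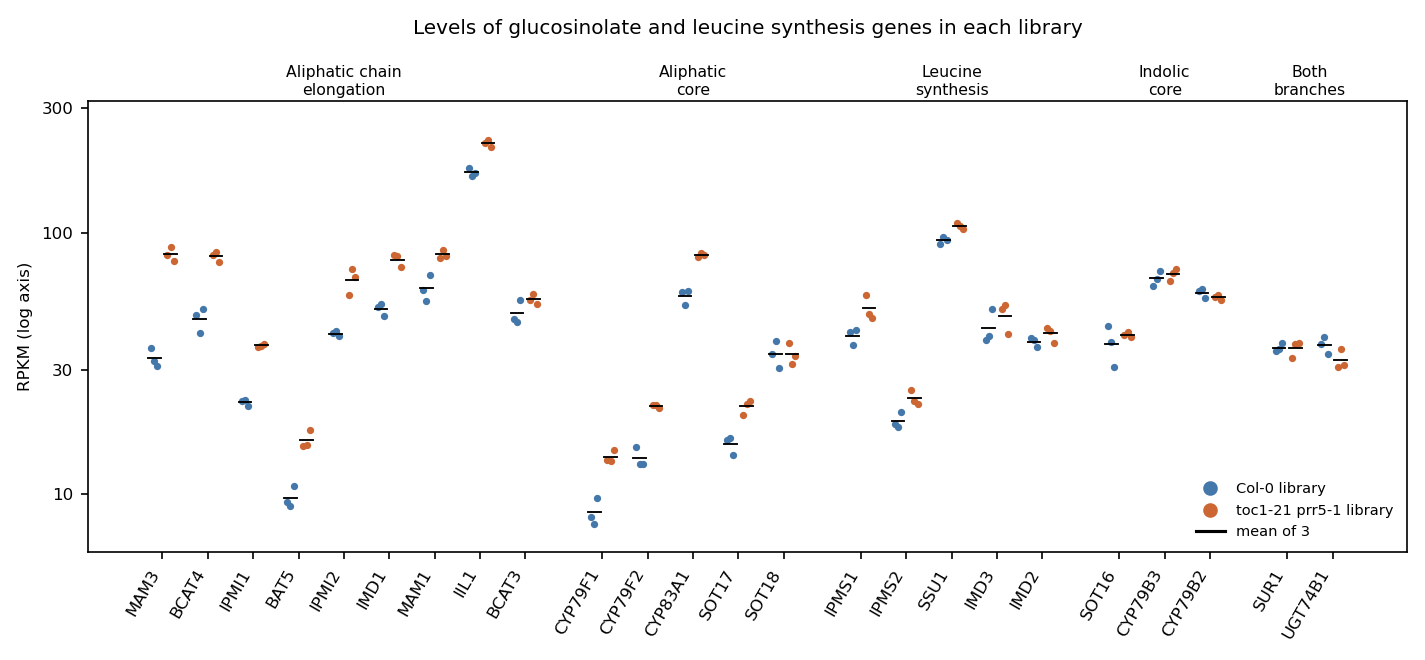
RPKM on a log axis for 24 members by pathway step, with 3 Col-0 libraries (blue) and 3 toc1-21 prr5-1 libraries (orange) per gene and a line at each mean. The orange points lie above the blue ones for 8 of 9 chain elongation genes and 4 of 5 aliphatic core genes, and the points of the 3 indolic core genes overlap.

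MAM3 had the largest difference among the members of the chain elongation step. MAM3 and MAM1 encode methylthioalkylmalate synthases, which condense the 2-oxo acid with acetyl-CoA and set how far the chain is lengthened; MAM3 also accepts long chains. MAM3 stood at 36.3, 32.5 and 30.9 RPKM in Col-0 and 82.7, 88.1 and 78.2 RPKM in the mutant, a 2.50-fold rise in mean RPKM with a log2 fold change of 1.30 (SE 0.09). All 3 mutant libraries were more than 2 times the highest Col-0 library. Its neighbour MAM1 stood at 60.5, 54.8 and 69.3 RPKM and 80.5, 86.0 and 82.0 RPKM, 1.35-fold, with a log2 fold change of 0.43 (SE 0.10). The MAM1 groups were close but did not overlap. The call of MAM1 was lost without Col-0 replicate 1 or any single mutant library, at log2 fold changes of 0.40 to 0.45. The ratio of MAM3 to MAM1, in RPKM, was 0.599, 0.593 and 0.445 in Col-0 and 1.03, 1.02 and 0.955 in the mutant. MAM3 was the lesser of the pair in every Col-0 library and about equal to MAM1 in the mutant libraries. On TAIR10.1 the genes are in tandem on chromosome 5, MAM1 at 7703041 to 7706973 and MAM3 at 7718118 to 7721866, and their coding sequences are 83.8% identical.

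The entry and transport genes of the cycle were also higher. BCAT4, the aminotransferase that turns methionine into its 2-oxo acid, stood at 48.5, 41.5 and 51.1 RPKM in Col-0 and 82.1, 84.9 and 77.3 RPKM in the mutant, a log2 fold change of 0.78 (SE 0.09). BAT5, which carries the 2-oxo acids into the plastid, stood at 9.32, 9.05 and 10.8 RPKM and 15.3, 15.5 and 17.6 RPKM, a log2 fold change of 0.68 (SE 0.11). Both genes separated the genotypes in all libraries, with 1.73-fold and 1.66-fold higher means. BCAT3, the plastid aminotransferase that acts at the end of both the methionine and the leucine route, stood at 46.7, 45.5 and 55.5 RPKM and 55.4, 58.6 and 53.4 RPKM. Its groups overlapped, because Col-0 replicate 3 lay within the mutant range, and it did not pass at a log2 fold change of 0.18 (SE 0.09).

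Subunits of the isomerase and the dehydrogenase completed the group. IPMI1 and IPMI2 are small subunits of isopropylmalate isomerase that serve the methionine cycle. IPMI1 stood at 22.7, 22.9 and 21.8 RPKM in Col-0 and 36.8, 37.1 and 37.6 RPKM in the mutant, with little spread in either genotype and a log2 fold change of 0.70 (SE 0.08). IPMI2 stood at 41.4, 42.1 and 40.2 RPKM and 57.7, 72.7 and 68.0 RPKM, a log2 fold change of 0.66 (SE 0.10). Mutant replicate 1 was the lowest of the mutant libraries for IPMI2 and still above all Col-0 libraries. IIL1, the large subunit shared with leucine synthesis, stood at 177, 166 and 170.3 RPKM and 221, 228 and 215 RPKM, a log2 fold change of 0.37 (SE 0.08). It was the most abundant member and rose 1.29-fold, a call lost without mutant replicate 1 (log2 fold change 0.37) or mutant replicate 2 (0.35). IMD1, the dehydrogenase of the methionine cycle, stood at 52.1, 53.3 and 48.0 RPKM and 82.2, 81.4 and 73.9 RPKM, a log2 fold change of 0.62 (SE 0.08). Its coding sequence is 94.98% identical to that of the leucine enzyme IMD3, so part of its reads could be placed on either gene.

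The 5 members listed for leucine chain elongation, of which SSU1 also carries the glucosinolate term, had no call. None of them passed (0 higher, 0 lower; 3 at an unadjusted p under 0.05, and 1 called by limma-voom), and the median log2 fold change was 0.18. Over all 14 tested members that carry the leucine term 6 were called higher, 5 of them in the chain elongation list above (IIL1, IMD1, IPMI1, IPMI2 and MAM3) and the last AT1G80555. The share called higher over all tested genes was 3.9%. IPMS1 and IPMS2 are the isopropylmalate synthases, the leucine counterparts of the MAM enzymes. IPMS1 stood at 41.7, 37.3 and 42.5 RPKM in Col-0 and 58.1, 48.9 and 47.4 RPKM in the mutant and IPMS2 at 18.6, 18.2 and 20.6 RPKM and 25.1, 22.7 and 22.1 RPKM. The groups of both did not overlap, at log2 fold changes of 0.33 (SE 0.10) and 0.27 (SE 0.09). IPMS1 was called after median-ratio scaling (0.35) and by limma-voom on recovered reads (0.34). SSU1, the isomerase small subunit of leucine synthesis, stood at 91.0, 96.3 and 94.3 RPKM and 109, 107 and 104 RPKM, a log2 fold change of 0.18 (SE 0.07). SSU1 lies 150 bases upstream of IPMI2 on chromosome 2. The dehydrogenases IMD2 and IMD3 had overlapping groups, with means of 38.4 ± 1.45 RPKM for Col-0 and 41.3 ± 2.83 for the mutant for IMD2 and 43.5 ± 6.60 RPKM for Col-0 and 48.3 ± 6.41 for the mutant for IMD3 (SD, n = 3 each). Summed over the 5 genes, the level was 229.8, 231 and 245 RPKM in Col-0 and 287, 274 and 253 RPKM in the mutant, and these sums did not overlap.

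At the condensation, isomerisation and dehydrogenation steps the ratio of the methionine enzymes to their leucine relatives was higher in every mutant library than in any Col-0 library. In RPKM, which is per length, the ratio of MAM1 plus MAM3 to IPMS1 plus IPMS2 was 1.605, 1.57 and 1.59 in Col-0 and 1.96, 2.43 and 2.30 in the mutant. The ratio of IPMI1 plus IPMI2 to SSU1 was 0.704, 0.674 and 0.657 in Col-0 and 0.863, 1.03 and 1.01 in the mutant. The ratio of IMD1 to IMD2 plus IMD3 was 0.664, 0.672 and 0.546 in Col-0 and 0.870, 0.856 and 0.935 in the mutant. The ratio of BCAT4, of the methionine route, to BCAT3, which serves both routes, was 1.04, 0.912 and 0.922 in Col-0 and 1.48, 1.45 and 1.45 in the mutant. These ratios come from the comparison through which the group was taken up and were not tested. Coding sequences of the pairs were 65.04% identical for MAM1 and IPMS1, 73.7% for IPMI1 and SSU1, 83.8% for IMD1 and IMD2, and 62.3% for BCAT3 and BCAT4. For IMD1 and IMD3 the value was 94.98%, so reads shared between these genes could move the ratio of IMD1 to IMD2 plus IMD3.

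**Figure D2:**
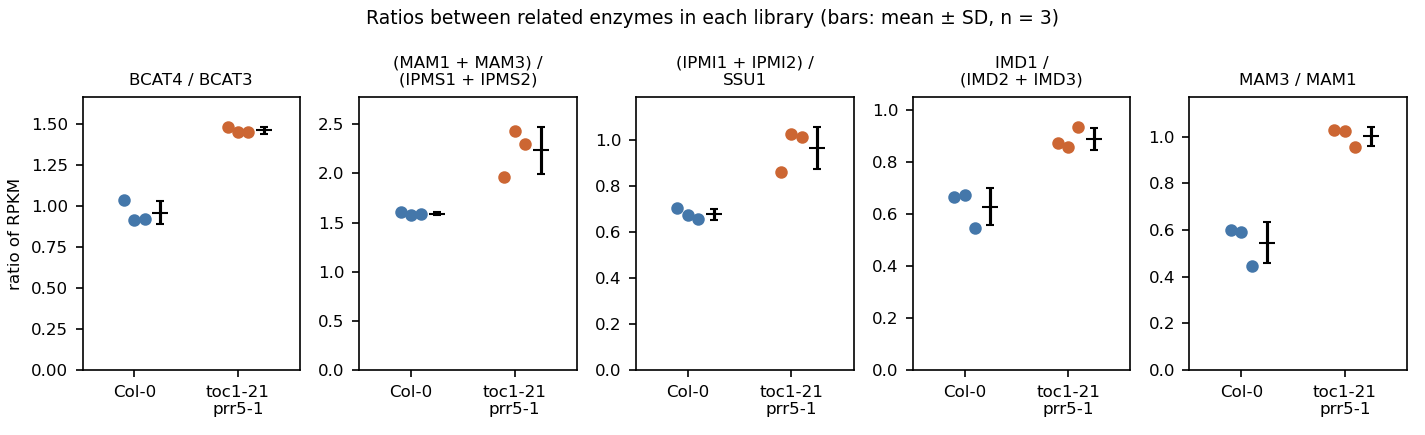
Ratios of RPKM between related enzymes in each library, Col-0 in blue and toc1-21 prr5-1 in orange, with mean and SD (n = 3) at the side and axes from 0. In all 5 panels every mutant library lies above every Col-0 library, and the ratio of MAM3 to MAM1 goes from 0.445 to 0.599 in Col-0 to 0.955 to 1.03 in the mutant.

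Most core enzymes of the aliphatic branch were higher in the mutant as well. Of 5 members, 4 were higher and 1 did not pass, beside 3.9% called higher over all tested genes. Their median log2 fold change was 0.51. CYP79F1 and CYP79F2 make aldoximes from chain-elongated methionine. CYP79F1 stood at 8.17, 7.72 and 9.72 RPKM in Col-0 and 13.6, 13.4 and 14.8 RPKM in the mutant, a log2 fold change of 0.65 (SE 0.11). CYP79F2 stood at 15.2, 13.1 and 13.0 RPKM and 21.9, 22.0 and 21.5 RPKM, a log2 fold change of 0.63 (SE 0.09). Their tandem genes are 91.8% identical in coding sequence, so the share of each is uncertain; both were higher in all mutant libraries, and their ratio overlapped between genotypes. CYP83A1, which oxidises the aldoximes, stood at 59.5, 52.9 and 60.1 RPKM and 80.7, 83.8 and 82.3 RPKM, a log2 fold change of 0.51 (SE 0.08).

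Of the desulfoglucosinolate sulfotransferases of the last core step, SOT17 was called and SOT18 was not. SOT17 stood at 16.1, 16.4 and 14.1 RPKM in Col-0 and 20.1, 22.2 and 22.8 RPKM in the mutant and was called at a log2 fold change of 0.46 (SE 0.10). Without mutant replicate 2 (0.44) or mutant replicate 3 (0.42) that call was lost. SOT18 stood at 34.4, 38.5 and 30.4 RPKM and 37.9, 31.5 and 34.0 RPKM, with overlapping groups and a log2 fold change of 0.00 (SE 0.11). Summed over the 5 core members, the level was 133, 129 and 127 RPKM in Col-0 and 174, 173 and 175 RPKM in the mutant, and summed over the 9 chain elongation members it was 494, 467 and 498 RPKM in Col-0 and 714, 753 and 703 RPKM in the mutant.

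Side chain genes went both ways. Of 6 members 5 were tested, 1 higher, 2 lower and 2 not passing, beside 3.9% higher and 6.65% lower over all tested genes. FMOGS-OX3 and FMOGS-OX4 are flavin monooxygenases that oxidise the sulfur of the side chain. FMOGS-OX3 stood at 8.51, 6.97 and 9.96 RPKM in Col-0 and 13.1, 15.3 and 12.8 RPKM in the mutant, a log2 fold change of 0.65 (SE 0.13). FMOGS-OX4, which lies 5885 bases from it on chromosome 1, stood at 42.5, 35.7 and 29.3 RPKM and 24.0, 27.5 and 22.2 RPKM, a log2 fold change of -0.52 (SE 0.13). The neighbours moved in opposite directions, and their coding sequences are 79.2% identical. The call of FMOGS-OX3 was lost without mutant replicate 2 (0.57), and that of FMOGS-OX4 when Col-0 replicate 1 (-0.39) or 2 (-0.51) or mutant replicate 1 (-0.50) or 3 (-0.45) was left out, with no filter and with no mean-variance trend.

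GSL-OH, a dioxygenase that hydroxylates butenyl glucosinolate, was the most abundant side chain member. It stood at 148, 162 and 153 RPKM in Col-0 and 119, 123 and 116 RPKM in the mutant and fell, with a log2 fold change of -0.37 (SE 0.08). Its groups did not overlap, and the call was lost without mutant replicate 1 (-0.37). FMOGS-OX2 stood at 14.1, 6.95 and 14.3 RPKM and 10.0, 11.9 and 14.2 RPKM, with Col-0 replicate 2 the lowest of all 6 libraries, and did not pass. FMOGS-OX5 stood at 15.05, 14.96 and 15.4 RPKM and 14.97, 15.2 and 15.5 RPKM, a difference smaller than the spread within Col-0, at a log2 fold change of 0.01 (SE 0.09). Summed over the 6 side chain members, the level was 228, 227 and 222 RPKM in Col-0 and 181, 193 and 181 RPKM in the mutant, lower in every mutant library. GSL-OH made up most of this sum (means of 155 RPKM in Col-0 and 119 in the mutant), and FMOGS-OX3 was called the other way.

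No indolic member was called. Of 3 members, limma and limma-voom both called 0 and 0 had an unadjusted p under 0.05. CYP79B2 and CYP79B3 make indole-3-acetaldoxime from tryptophan. CYP79B2 stood at 60.1, 60.9 and 56.2 RPKM in Col-0 and 57.1, 57.8 and 55.4 RPKM in the mutant, and CYP79B3 at 62.6, 67.0 and 71.9 RPKM and 65.7, 70.6 and 72.6 RPKM. The groups overlapped, at log2 fold changes of -0.06 (SE 0.08) and 0.05 (SE 0.08). SOT16, the sulfotransferase that prefers indolic substrates, stood at 44.2, 38.1 and 30.6 RPKM and 40.6, 41.9 and 40.1 RPKM, with Col-0 replicates spread more widely than the mutant ones, and a log2 fold change of 0.13 (SE 0.12). Summed over the 3 genes, the level was 167, 166 and 159 RPKM in Col-0 and 163, 170.3 and 168 RPKM in the mutant, and these values overlapped. The difference between branches was not tested.

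Enzymes that serve both branches did not pass either. SUR1, the C-S lyase, stood at 35.3, 35.9 and 37.9 RPKM in Col-0 and 33.2, 37.7 and 37.8 RPKM in the mutant, a log2 fold change of -0.01 (SE 0.09). UGT74B1, a glucosyltransferase, stood at 37.5, 40.0 and 34.6 RPKM and 30.6, 35.9 and 31.3 RPKM, a log2 fold change of -0.19 (SE 0.09). GSH1, glutamate-cysteine ligase of glutathione synthesis, had means of 146 ± 3.58 RPKM for Col-0 and 140.3 ± 7.34 for the mutant (SD, n = 3 each). The branched-chain aminotransferases BCAT2 and BCAT6, both at a low level, had means of 6.25 ± 0.938 RPKM for Col-0 and 4.76 ± 1.17 for the mutant and of 7.83 ± 2.82 RPKM for Col-0 and 6.41 ± 1.37 for the mutant (SD, n = 3 each). None of these 5 genes had groups that stood apart.

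The 9 remaining members have no role in the lists used here, and 4 of them were tested. AT1G80555, described in the deposited table as similar to an isopropylmalate dehydrogenase, was the 1 called, at 0.0958, 0 and 0.695 RPKM in Col-0 and 2.30, 1.67 and 1.89 RPKM in the mutant. It was named after its values were seen. The gene reached the filter only through the mutant libraries, on at most 34 reads in a library, and ends 21 bases before IMD2 on the same strand of chromosome 1. AT2G30840 and AT4G28410 had means of 3.58 ± 0.900 RPKM for Col-0 and 4.45 ± 1.16 for the mutant and of 1.82 ± 0.509 RPKM for Col-0 and 2.57 ± 0.845 for the mutant (SD, n = 3 each) and did not pass. AT2G30820 did not pass either, at 1.41, 1.37 and 1.48 RPKM and 0.859, 1.14 and 1.14 RPKM; it overlaps AT2G30830 on the other strand, and reads of such a pair cannot be told apart.

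**Figure D3:**
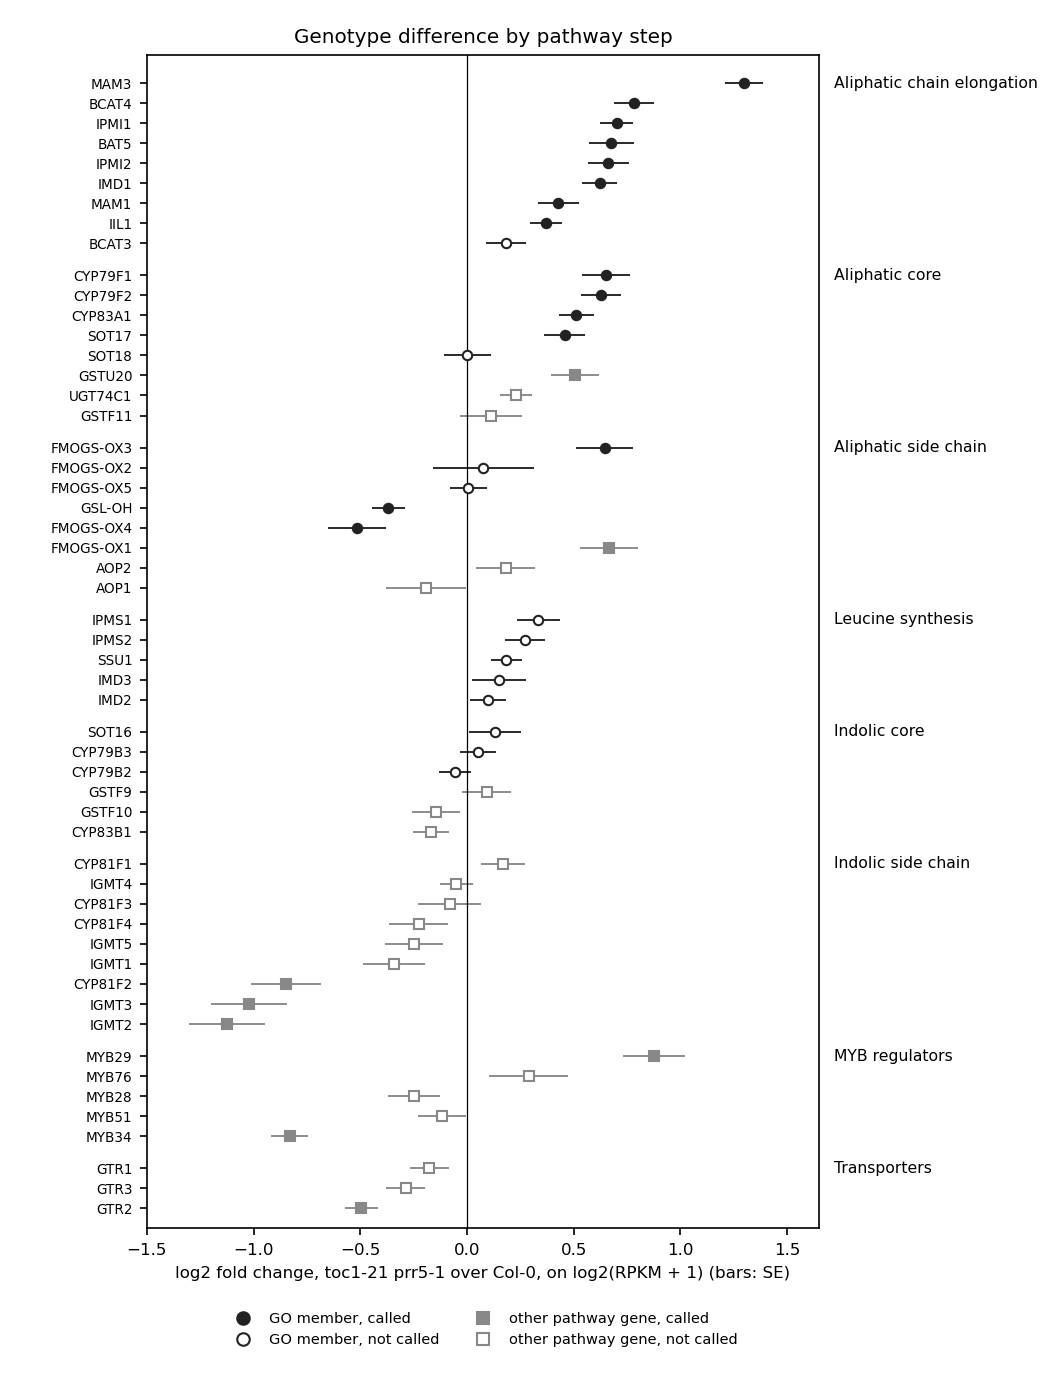
Log2 fold change, toc1-21 prr5-1 over Col-0, on log2(RPKM + 1) with SE (3 libraries per genotype), for annotated members (circles) and for other pathway genes (grey squares), filled where called. Aliphatic chain elongation and core members lie to the right of 0, apart from SOT18 at 0.00, and MYB34, CYP81F2, IGMT2, IGMT3 and GTR2 lie to the left.

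Pathway genes outside the annotation were taken from lists of regulators, enzymes and transporters. Of 74 such genes 70 were tested, 6 higher, 7 lower and 57 not passing, with a median log2 fold change of -0.03. Over all tested genes 3.9% were called higher and 6.65% lower. Of the 6 tested aliphatic enzymes, 2 were higher and 4 did not pass. GSTU20, a glutathione transferase of the aliphatic core, stood at 116, 128 and 127 RPKM in Col-0 and 176, 205 and 151 RPKM in the mutant (log2 fold change 0.51, SE 0.11, limma adjusted p = 0.0171). FMOGS-OX1 stood at 3.83, 3.26 and 4.59 RPKM and 6.94, 7.11 and 6.11 RPKM (log2 fold change 0.66, SE 0.14, limma adjusted p = 0.0117). Both were higher in all mutant libraries. The call of GSTU20 was lost without Col-0 replicate 1 or mutant replicate 1 or 2 (limma adjusted p = 0.0803, 0.0675 and 0.0671), and that of FMOGS-OX1 without mutant replicate 1 or mutant replicate 2 (0.0588 and 0.0607).

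Among the MYB regulators, MYB29 was higher and MYB34 lower in the mutant. MYB29, an activator of aliphatic genes, stood at 4.89, 5.19 and 7.44 RPKM in Col-0 and 11.5, 12.0 and 10.7 RPKM in the mutant, a 1.95-fold rise (log2 fold change 0.88, SE 0.15, limma adjusted p = 0.00359). MYB28, the other main aliphatic activator, stood at 46.2, 40.3 and 58.1 RPKM and 40.4, 39.4 and 40.1 RPKM and did not pass (log2 fold change -0.25, SE 0.12, limma adjusted p = 0.274). MYB28 remained the more abundant of the pair: the ratio of MYB29 to MYB28, in RPKM, was 0.106, 0.129 and 0.128 in Col-0 and 0.284, 0.304 and 0.268 in the mutant. MYB76, next to MYB29 on chromosome 5, was near the filter, at 0.828 ± 0.262 RPKM for Col-0 and 1.22 ± 0.207 for the mutant (SD, n = 3 each), and did not pass. MYB34, an activator of indolic genes, stood at 48.3, 42.5 and 42.0 RPKM and 24.1, 25.3 and 23.9 RPKM and fell (log2 fold change -0.83, SE 0.09, limma adjusted p = 0.000190). MYB51, its relative, stood at 7.45, 6.76 and 6.33 RPKM and 6.30, 6.63 and 5.76 RPKM and did not pass. MYB122 was below the filter, at 0.795, 0.852 and 0.753 RPKM in Col-0 and 0.525, 0.434 and 0.400 RPKM in the mutant. MYB29 and MYB34 kept their calls in each of the 14 other settings.

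Of the 8 other regulators, 1 was lower, 7 did not pass and none was higher, beside 6.65% called lower over all tested genes. OBP2, a DOF factor known to activate glucosinolate genes, fell from 24.1 ± 1.92 in Col-0 to 13.4 ± 2.55 in the mutant (RPKM, SD, n = 3 each; limma adjusted p = 0.00352). MYC2, MYC3 and MYC4, the bHLH partners of the MYB factors, did not pass, at log2 fold changes of -0.36 (SE 0.14), -0.28 (SE 0.08) and -0.07 (SE 0.10). Without Col-0 replicate 3, MYC2 (limma adjusted p = 0.0296) and MYC3 (0.0440) were called lower.

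Indolic genes outside the annotation were in part lower. Of 12 tested, 0 were higher, 3 lower and 9 did not pass, with a median log2 fold change of -0.20. Over all tested genes 6.65% were called lower, and nothing is read from the count of so few genes. IGMT2 and IGMT3 are methyltransferases that finish methoxylated indole glucosinolates, and CYP81F2 hydroxylates the indole ring before them. IGMT3 stood at 13.9, 14.5 and 8.60 RPKM in Col-0 and 5.05, 5.98 and 5.28 RPKM in the mutant (log2 fold change -1.02, SE 0.18, limma adjusted p = 0.00479). IGMT2 stood at 4.33, 2.95 and 2.96 RPKM and 1.03, 1.24 and 0.775 RPKM (log2 fold change -1.12, SE 0.18, limma adjusted p = 0.00269). The coding sequences of these neighbours are 97.4% identical, with a shared run of 263 bases, so reads may be split between them. CYP81F2 stood at 2.98, 2.26 and 2.28 RPKM and 1.15, 0.758 and 0.931 RPKM (log2 fold change -0.85, SE 0.16, limma adjusted p = 0.00881). It reached 1 RPKM in 3 Col-0 libraries and 1 mutant library, and IGMT2 in 3 and 2. Both therefore passed the filter through the Col-0 libraries, where they are high. None of the 3 called genes was above 14.5 RPKM in any library.

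The abundant indolic side chain genes did not pass. IGMT4 stood at 76.2, 79.1 and 82.5 RPKM in Col-0 and 75.2, 74.7 and 79.7 RPKM in the mutant, CYP81F4 had means of 213 ± 39.6 RPKM for Col-0 and 180.2 ± 17.1 for the mutant, and IGMT5 had means of 104 ± 20.9 RPKM for Col-0 and 86.6 ± 5.98 for the mutant (SD, n = 3 each). Without Col-0 replicate 3, CYP81F4 (limma adjusted p = 0.0368), IGMT1 (0.0457) and IGMT5 (0.0207) were called lower. CYP83B1, the indolic counterpart of CYP83A1, stood at 91.2, 82.0 and 82.6 RPKM and 70.9, 76.5 and 79.8 RPKM; the groups did not overlap but the gene did not pass (limma adjusted p = 0.281).

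The glucosinolate importers were lower or did not pass. GTR2, which loads glucosinolates into the phloem, stood at 59.9, 60.7 and 61.7 RPKM in Col-0 and 41.7, 41.8 and 45.1 RPKM in the mutant (log2 fold change -0.49, SE 0.08, limma adjusted p = 0.00231). GTR1 and GTR3 did not pass, at log2 fold changes of -0.18 (SE 0.09) and -0.29 (SE 0.09). The groups of all 3 importers did not overlap. Nothing is read from this, because the share of all tested genes without overlap in the lower direction was not counted. Phloem companion cell markers (1 of 3 lower) summed to 244.4 to 256.4 RPKM in Col-0 and 156.5 to 169.8 RPKM in the mutant. Most of this difference came from PP2-A1, the gene called lower (means of 156 RPKM in Col-0 and 77.1 in the mutant). SUC2 (means of 83.9 RPKM in Col-0 and 77.1 in the mutant) and APL had overlapping groups and did not pass. The sum is therefore mainly a reading of PP2-A1. The part of these markers in the result for GTR2 was not tested. Without Col-0 replicate 3, GTR3 was called (limma adjusted p = 0.0191).

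Precursor pathways held 4 calls. Of 13 tested genes of sulfate uptake and assimilation, 2 were higher and 11 did not pass, with a median log2 fold change of 0.01. APS4, an ATP sulfurylase, rose from 52.1 ± 4.85 in Col-0 to 74.7 ± 8.12 in the mutant (RPKM, SD, n = 3 each; limma adjusted p = 0.0109), and APR2, an APS reductase, from 58.9 ± 6.12 in Col-0 to 75.5 ± 3.64 in the mutant (RPKM, SD, n = 3 each; limma adjusted p = 0.0363). Of 11 genes of methionine and tryptophan synthesis, 1 was higher, 1 lower and 9 did not pass. Over all tested genes 10.6% were called, and nothing is read from these few genes. CGS1, the committed enzyme of methionine synthesis, rose from 126 ± 1.96 in Col-0 to 153 ± 2.51 in the mutant (RPKM, SD, n = 3 each; limma adjusted p = 0.0401), and TRP1, of tryptophan synthesis, fell from 41.6 ± 1.92 in Col-0 to 33.5 ± 1.96 in the mutant (RPKM, SD, n = 3 each; limma adjusted p = 0.0457). The calls of APR2, CGS1 and TRP1 were each lost in 5 of the 6 fits that left out a library, at limma adjusted p up to 0.152, 0.155 and 0.173, while that of APS4 was lost in none. Each kept its call in a single such fit: APR2 without Col-0 replicate 1, and CGS1 and TRP1 without Col-0 replicate 2. Of 8 tested non-member genes of branched-chain amino acid metabolism (acetolactate synthase subunits, KARI, DHAD, the threonine deaminase OMR1, BCAT1 and BCAT5), limma and limma-voom both called 0, with 1 at an unadjusted p under 0.05. DHAD, the dihydroxyacid dehydratase, was called higher without mutant replicate 3 (limma adjusted p = 0.0496).

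The called aliphatic genes were spread over the chromosomes. Within 0.5 Mb on each side of the 12 called genes of chain elongation and core, the share of tested non-member genes called was 2.67% to 16.7%, and it was under the 10.6% of all tested genes for 9 of the 12. Genes that lie close together share neighbours, as do MAM1 and MAM3 or CYP79F1 and CYP79F2, so the 12 windows are not separate. The share was lowest around IMD1 (2.67%) and IPMI1 (2.91%) and highest around SOT17 (16.7%) and the CYP79F1 and CYP79F2 pair (13.7%). Around MAM3 it was 9.04%. MAM1 and MAM3 lie within 1 Mb of the mutated PRR5 on chromosome 5, though not within 0.5 Mb. MAM1 starts at 7703041, MAM3 ends at 7721866 and PRR5 is at 8356204 to 8358546. Whether that position bears on the values of MAM1 and MAM3 was not tested. Over the neighbours of all tested members the share called was 9.44% (442 of 4680). MYB34, MYB28 and GTR2 all lie within 0.5 Mb of the mutated TOC1 on chromosome 5, with 14.6%, 17.9% and 18.2% of neighbours called. MYB34 is at 24494291 to 24496371, TOC1 at 24674963 to 24678550 and MYB28 at 24689069 to 24691187. GTR2 is at 25165137 to 25168060. Whether that position bears on the values of MYB34, MYB28 and GTR2 was not tested. MYB29 lies elsewhere on that chromosome, with 3.62%.

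**Figure D4:**
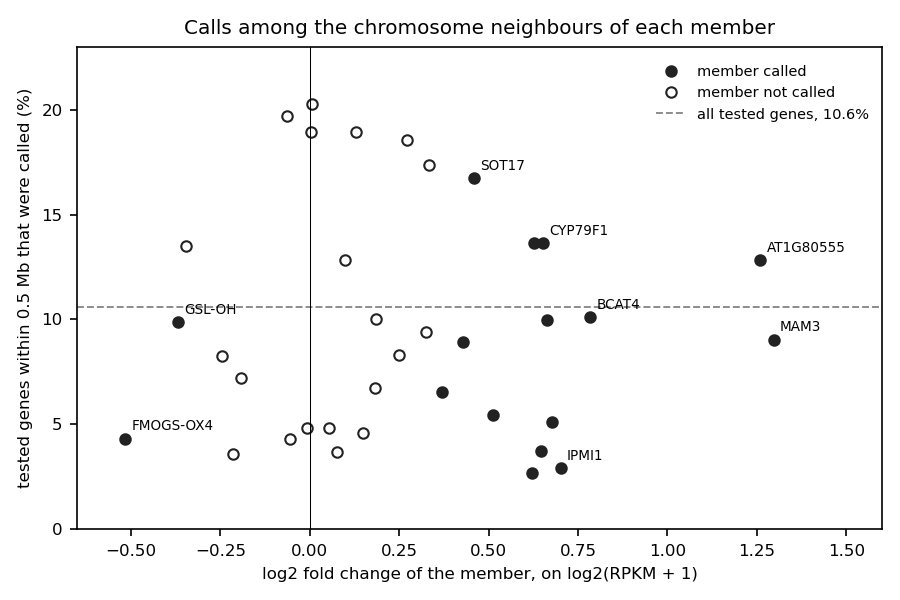
For each of the 36 tested members, the log2 fold change (x axis, on log2(RPKM + 1)) against the percentage of tested non-member genes within 0.5 Mb on each side that were called (y axis), with called members filled and the 10.6% of all tested genes as a dashed line. Called members lie both below and above the line, from 2.67% for IMD1 to 16.7% for SOT17.

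Marker lists of organs and cell types were read beside these results. The seed and embryo list had 6 of 10 tested genes lower and 0 higher. Over all tested genes 3.9% were called higher and 6.65% lower. The summed level of the list was 738.0 to 852.2 RPKM in Col-0 and 342.8 to 409.5 RPKM in the mutant. CRA1 (means of 357 RPKM in Col-0 and 168 in the mutant) and CRC (191 and 107) were its most abundant genes. CRB, SESA1, SESA2 and SESA3 varied widely between Col-0 libraries and did not pass. Mesophyll and shoot markers (1 of 6 lower) summed to 20717 to 24592 RPKM in Col-0 and 20593 to 22856 RPKM in the mutant. The root endodermis list (0 of 6 called) summed to 33.6 to 65.7 RPKM and 44.1 to 51.7 RPKM, and the root hair list (0 of 6 called) to 22.7 to 54.4 RPKM and 50.02 to 69.2 RPKM; no gene of either had an unadjusted p under 0.05. Guard and myrosin cell markers (1 higher and 1 lower of 6) summed to 893.6 to 1131 RPKM and 832.2 to 927.6 RPKM. No marker was at 0 in every library. The part of these differences in the results for glucosinolate genes was not tested.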

How the data were processed

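RNA was extracted with Trizol from whole seedlings and made into directional libraries, per the labels' protocols, with 3 libraries for each of 2 genotypes. The authors deposited RPKM values for 33602 loci, per the file headers. TopHat2, TopHat and edgeR with TAIR10 are named in the submitters' processing notes, with no versions or roles. No read counter or strand setting is given in the sources used here, so antisense and overlapping genes cannot be told apart. Depths were recovered from the deposited RPKM: where an annotated exon length is right, a gene with 1 read gives the depth, and 219 to 307 genes per library did. Whole reads followed for 25139 of 25139 loci with a value (tolerance 0.01 at the annotated length for 3765 loci, 0.001 at the smallest fitting length for 21374, whose reads may be too few by a common factor). They summed to at least 99.5% of each depth. They were used for counting precision and as the input of the limma-voom setting, and not in the main fit.

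Genes that reached 1 RPKM in 3 or more libraries were fitted as log2(RPKM + 1) in limma 3.58.1 (R 4.3.3) with a mean-variance trend and genotype as its only term, with Benjamini-Hochberg adjustment over all tested genes and calls at 0.05. Members and gene lists were chosen with earlier results of these data known. The text names every member with a listed role, the 8 members in no list with the largest change at a mean of at least 2 RPKM (only AT2G30840 and AT4G28410 reached that mean), and per list outside the members up to 4 with the smallest adjusted p past the threshold. Gene positions, promoters and coding sequences were read from the RefSeq annotation of TAIR10.1, which held 97.7% of the loci; no coordinates were converted. Coding sequences were aligned with Biopython 1.88; protein sequences were not used here. The alternatives were pseudocounts of 0.1 and 5, no filter, a filter at 5 RPKM, median-ratio scaling, no trend, limma-voom on recovered reads, leaving out each library, and the replicate block.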

Additional observations from a re-analysis of the deposited data

How the results depend on the processing

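No member changed direction in a way that altered a call under any of the 14 other settings. The count of members called, 16, ranged from 12 to 16 when 1 library was left out and from 15 to 17 otherwise; that of aliphatic chain elongation and core members called higher, 12, ranged from 9 to 12 and stayed at 12 otherwise. BAT5, BCAT4, IMD1, IPMI1, IPMI2, MAM3, CYP79F1, CYP79F2 and CYP83A1 were called in every setting. Over all tested genes, 2080 calls became 1340 to 2250 when 1 library was left out and the same genes were tested, the lowest being 1340 (mutant replicate 1 left out) and 1361 (Col-0 replicate 1, or mutant replicate 2, left out); the other pathway genes called, 13, became 8 to 16, with 8 without either of mutant replicates 1 and 2. The cause was not tested. The labels do not pair samples by number, and the deviations of libraries that share a number had correlations of -0.03, 0.15 and 0.04. With the replicate block 2114 genes and 16 members were called, and CGS1 and TRP1 lost their calls. Median-ratio scaling moved the median log2 fold change of all genes from -0.01 to 0.01. A window of 1 Mb gave 9.4% of neighbours called in place of 9.44%; around IMD1 the share went from 2.67% to 5.30% and around BCAT4 it rose to 14.7%, so that 8 of the 12 called aliphatic genes in place of 9 were under the 10.6% of all tested genes, and the lowest was IPMI1 (4.49%). Promoters read to 50 bases after the start held the AC element in 11 of 40 members in place of 10, the G-box in 5 in place of 3, the sulfur-response core in 16 in place of 13 and the evening element in 1 in place of 0. The CCA1-binding site went from 2 to 4 (10% against 7.88% of all promoters), and so from below to above the share of all promoters. Depth limits genes near 1 RPKM, such as AT1G80555, MYB76, IGMT2 and CYP81F2.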
